A study of Mus musculus with 8 samples.

Results

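Immediate early genes were measured in cultured dermal fibroblasts of control and TGFβ1FKO mice. The 10 genes are *Fos*, *Fosb*, *Jun*, *Junb*, *Egr1*, *Egr2*, *Egr3*, *Atf3*, *Ier2* and *Arc*. They were chosen by symbol among the 15111 genes of the table, all 10 were found there, and none was removed by the authors' filter on low counts. None of them passed the threshold in limma's test of the genotypes after adjustment over all genes. *Arc* had the largest difference, a 1.46-fold higher mean level in TGFβ1FKO fibroblasts. For each of the other 9, the SD between libraries of a group was larger than the difference between the genotypes on the log2 scale.

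Control mice carried floxed *Tgfb1* alleles (*Tgfb1*fl/fl), and TGFβ1FKO mice carried the same floxed alleles with *Col1a2-CreERT*, a tamoxifen-activated Cre recombinase driven by regulatory sequence of the *Col1a2* gene. All mice, controls included, were fed tamoxifen, so the comparison is between animals with and without Cre. According to the methods, back skin with its epidermis was taken from mice at 10 weeks of age and digested, and the liberated cells were plated in medium with serum. The cells were then kept for 72 h in a serum replacement medium on fibronectin before RNA was extracted. There were 4 libraries per group, and the labels do not say whether each came from its own mouse, so the p-values measure only the spread between these libraries. Depth, as reads on the listed genes, ran from 16988998 to 21806579 in the controls and from 17445002 to 23071528 in the TGFβ1FKO libraries.

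Immediate early genes are transcribed within minutes of a stimulus, without new protein synthesis, when kinase cascades activate transcription factors that already sit at or near their promoters, such as serum response factor with its ternary complex partners and CREB. Growth factors and serum induce them in fibroblasts, and so do tissue dissociation, heat and other handling. Their messages are short-lived, and most of their products are transcription factors, with Fos and Jun proteins pairing to form AP-1.

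*Tgfb1*, the targeted gene, had a mean normalised count of 1374 ± 85.4 (SD, n = 4) in controls and 277 ± 42.5 (SD, n = 4) in TGFβ1FKO fibroblasts, a log2 fold change of -2.31 (SE 0.10, adjusted p = 1.53e-07, limma with Benjamini-Hochberg adjustment). For the label of the cells 9 fibroblast markers were looked at, all of which were in the table. *Col1a1*, the type I collagen chain, was their most abundant member at 653490.0 ± 54463 in controls and 664780.0 ± 27436 in TGFβ1FKO fibroblasts. Between the genotypes 0 of the 9 were called, beside 0.086% of all genes, which does not bear on the identity of the cells. Endothelial, keratinocyte and macrophage markers were present at low summed levels. The sum lay between 722 and 1162 in controls and 732 and 779 in TGFβ1FKO fibroblasts for 11 endothelial genes. It lay between 113 and 173 for the 4 of 9 keratinocyte genes that were in the table, and between 379 and 653 for the 5 of 13 macrophage genes. All 11 endothelial genes had a log2 fold change below 0, with a median of -0.45, and 0 were called, beside 0.086% of all genes. Of 11 pericyte and smooth muscle genes 10 were in the table and 0 were called, beside 0.086% of all genes. At an unadjusted p under 0.05 in limma's test, 3 were higher and 1 was lower in TGFβ1FKO fibroblasts, 40% of the 10 beside 7.46% of all genes. The summed level of the 10 was not low, at 33249 to 40994 in controls and 38275 to 46643 in TGFβ1FKO fibroblasts. *Acta2*, smooth muscle actin, was at 34200.0 ± 3315 in controls and 39021 ± 2996 in TGFβ1FKO fibroblasts. *Myh11*, smooth muscle myosin, was at 446 ± 36.6 and 740.0 ± 150.2 (limma, adjusted p = 0.0649). It was the only 1 of the 10 whose groups did not overlap, beside 3.79% of all genes. The desmosome gene *Dsp* was the only 1 of the 4 keratinocyte genes without overlap, at 22.2 ± 7.36 and 44.8 ± 9.53 (limma, adjusted p = 0.334). *Krt10*, *Tek* and *Lyz2*, the most abundant keratinocyte, endothelial and macrophage markers, had means in controls of 69.5, 272 and 287 and in TGFβ1FKO fibroblasts of 69.2, 226 and 231. Their part in the values of the immediate early genes was not tested.

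The genes of the 4 AP-1 subunits are protein-coding genes on GRCm38 (GENCODE M21), with *Fos* at chr12:85473890-85477273, *Fosb* at chr7:19302696-19310051, *Jun* at chr4:95049034-95052222 and *Junb* at chr8:84974484-84978718. The 250 bases before their transcription start are shown because some of the motifs through which a stimulus reaches such genes lie close to the start. The sequences are from RefSeq (GRCm38.p6), 5′ to 3′ on the strand of the gene, *Fos* on the plus strand at chr12:85473640-85473889, *Fosb* on the minus strand at chr7:19310046-19310295, *Jun* on the minus strand at chr4:95052223-95052472 and *Junb* on the minus strand at chr8:84978749-84978998. Capitals mark TGACG, the core of the cyclic AMP response element that CREB and ATF proteins bind, searched on both strands as TGACG and CGTCA.
Fos: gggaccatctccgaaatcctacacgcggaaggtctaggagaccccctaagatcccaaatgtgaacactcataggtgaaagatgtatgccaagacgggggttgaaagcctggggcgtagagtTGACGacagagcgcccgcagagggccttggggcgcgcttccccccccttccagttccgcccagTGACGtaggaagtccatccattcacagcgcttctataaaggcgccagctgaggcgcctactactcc
Fosb: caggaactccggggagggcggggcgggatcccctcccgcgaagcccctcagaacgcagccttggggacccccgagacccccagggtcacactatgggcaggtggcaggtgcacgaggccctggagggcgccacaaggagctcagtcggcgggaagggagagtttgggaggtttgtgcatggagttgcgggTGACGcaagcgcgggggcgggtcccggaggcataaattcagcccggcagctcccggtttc
Jun: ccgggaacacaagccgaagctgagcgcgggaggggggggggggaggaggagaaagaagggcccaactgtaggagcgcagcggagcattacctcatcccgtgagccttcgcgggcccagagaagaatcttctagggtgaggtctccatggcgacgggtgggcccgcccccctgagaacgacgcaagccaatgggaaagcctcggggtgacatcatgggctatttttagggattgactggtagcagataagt
Junb: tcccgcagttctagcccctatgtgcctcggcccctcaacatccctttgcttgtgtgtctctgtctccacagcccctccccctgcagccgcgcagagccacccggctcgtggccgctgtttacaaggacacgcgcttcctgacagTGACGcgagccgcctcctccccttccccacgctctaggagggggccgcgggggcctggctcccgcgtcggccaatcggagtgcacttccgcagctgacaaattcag

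RefSeq's promoter table matched 6 of the 10 genes, *Atf3*, *Jun*, *Fosb*, *Junb*, *Egr2* and *Fos*. TGACG was found in 5 of these 6, all but *Jun*, and in 17.8% of 32841 windows of the same length over all genes. The 6 were counted as genes with a match in any of their windows and the background as windows, so the units differ. *Fos* held it at 62 to 66 and at 125 to 129 bases before the start, *Fosb* at 56 to 60, *Junb* at 102 to 106 and *Atf3* at 3 to 7. *Egr2* has several annotated starts, so that it had more windows in which a match could fall. The TATA box letters TATAAA were found in *Fos*, at 28 to 33 bases before the start, and in 12.4% of all windows. The AP-1 element TGAGTCA was found in 0 of the 6 genes and in 4.46% of all windows. The EGR element GCGNGGGCG was found in *Fosb* and in 4.70% of all windows, and a CArG box, the element that serum response factor binds, was found in *Egr2* and in 1.47% of all windows. Bases farther than 250 from the start were not searched, so a motif absent from a window can still lie farther from the start of that gene. Only matches to the fixed pattern of each motif were counted. A variant of an element with other letters can therefore lie in a window without a match. Each match is a description of letters in a window, and no binding was measured.

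The AP-1 subunits come first among the transcripts, and each value is a normalised count, that is, reads scaled by the size factor of each library. *Fos*, whose protein forms AP-1 with Jun proteins, had 4630.1, 4995, 5351 and 5396 in control replicates 1 to 4 and 7054, 4797, 3962.5 and 6182 in TGFβ1FKO replicates 1 to 4. The 4 TGFβ1FKO libraries lay on either side of the controls, with replicates 1 and 4 above every control and replicate 3 below every control, so that the groups overlapped. The mean was 5093 ± 357 (SD, n = 4) in controls and 5499 ± 1383 (SD, n = 4) in TGFβ1FKO fibroblasts, a fold change of 1.06 with a 95% interval of 0.856 to 1.30 (limma, adjusted p = 0.925).

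*Fosb*, a Fos family member, had 1078, 775, 1440.4 and 1423 in control replicates 1 to 4 and 1219, 1069, 685 and 1129 in TGFβ1FKO replicates 1 to 4. Control replicate 2 and TGFβ1FKO replicate 3 were low, and the highest control was 1.86-fold above the lowest. The fold change was 0.876 with a 95% interval of 0.649 to 1.18 (limma, adjusted p = 0.860), and on the log2 scale its interval was the widest of the 10 genes.

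*Jun*, the Jun subunit that gave the family its name, had 2895, 2743, 3307 and 2783 in control replicates 1 to 4 and 3723, 2773, 2721 and 3090 in TGFβ1FKO replicates 1 to 4. TGFβ1FKO replicate 1 lay above every control, and the other 3 TGFβ1FKO libraries lay within or just under the range of the controls. TGFβ1FKO over control, the fold change was 1.04 with a 95% interval of 0.907 to 1.20 (limma, adjusted p = 0.910). *Junb*, a Jun protein that can oppose Jun at some promoters, had 5009.5, 4586, 5285 and 5024 in control replicates 1 to 4 and 6045, 5172, 4371 and 5092 in TGFβ1FKO replicates 1 to 4. TGFβ1FKO replicate 1 was again above and TGFβ1FKO replicate 3 below every control, and the fold change was 1.03 with a 95% interval of 0.911 to 1.17 (limma, adjusted p = 0.923). Exons of *Jun* overlap the antisense gene *Junos* and exons of *Junb* overlap the antisense gene *Prdx2*, and the libraries were not strand-specific, so reads in the shared stretches cannot be told apart. *Junos* had a mean of 26.4 in controls and 23.6 in TGFβ1FKO fibroblasts, and *Prdx2* had 4501 and 4237.

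Of the other genes, *Egr2* lies at chr10:67535475-67542188, *Egr3* at chr14:70077203-70082614, *Atf3* at chr1:191170296-191218039, *Ier2* at chr8:84661331-84662852 and *Arc* at chr15:74669083-74672570 in the same annotation, and all are protein-coding. The 3 *Egr* genes encode zinc finger transcription factors that are induced through serum response factor. *Egr1* had 7614, 8263, 7948 and 8725 in control replicates 1 to 4 and 9460.1, 8859.8, 7637 and 9343 in TGFβ1FKO replicates 1 to 4. TGFβ1FKO replicates 1, 2 and 4 were above every control, and TGFβ1FKO replicate 3 lay among the lowest controls. Its fold change was 1.08 with a 95% interval of 0.972 to 1.20 (limma, adjusted p = 0.734).

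*Egr2*, which also drives myelin genes in Schwann cells, had 490.4, 518.5, 769.5 and 533 in control replicates 1 to 4 and 613, 507, 483 and 578 in TGFβ1FKO replicates 1 to 4. Control replicate 3 stood apart above the other 7 libraries, and without it the controls lay within the range of the TGFβ1FKO libraries. For *Egr2* the fold change was 0.956 with a 95% interval of 0.787 to 1.16 (limma, adjusted p = 0.934), and the direction turned without control replicate 3, where the log2 fold change was 0.08. Of 18 Schwann cell markers, 16 were in the table, and *Sox10* and *Foxd3* were called lower in TGFβ1FKO fibroblasts by limma's test. Of all genes 0.086% were called in either direction. The median log2 fold change over the 16 was -1.50. At an unadjusted p under 0.05, 12 of the 16 were lower, 75% beside 7.46% of all genes. Groups that did not overlap were found for 9 of the 16, all lower, beside 3.79% of all genes. *Erbb3* and *Cdh19* were among these 9, at 107 and 90.8 in controls and 15.6 and 14.9 in TGFβ1FKO fibroblasts (limma, adjusted p = 0.0714 and 0.0799). *Sox10*, the glial lineage regulator, was also highest in control replicate 3, at 207 against 72.1 to 148 in the other controls and 7.25 to 21.1 in the TGFβ1FKO libraries. The summed level of the 16 genes lay between 12554 and 13094 in controls and between 10920.0 and 12968 in TGFβ1FKO fibroblasts, most of it from *Pmp22*, a myelin protein gene that was at 7142 ± 705 and 7472 ± 1092. The part of Schwann cell RNA in the *Egr2* values was not tested, and in bulk RNA fewer cells of a type and less RNA per cell cannot be told apart.

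*Egr3*, the least abundant of the 3, had 118, 136, 159.7 and 140.2 in control replicates 1 to 4 and 154, 99.4, 135 and 116 in TGFβ1FKO replicates 1 to 4. The lowest TGFβ1FKO library was replicate 2, in contrast to most of the other genes. The fold change was 0.906 with a 95% interval of 0.722 to 1.14 (limma, adjusted p = 0.863).

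*Atf3*, a stress-induced CREB and ATF family factor, had 317, 272, 345 and 273 in control replicates 1 to 4 and 417, 291, 257 and 320.2 in TGFβ1FKO replicates 1 to 4. TGFβ1FKO replicate 1 was the highest and TGFβ1FKO replicate 3 the lowest of all 8 libraries. The fold change was 1.05 with a 95% interval of 0.857 to 1.29 (limma, adjusted p = 0.927). *Ier2*, a short nuclear protein of the growth factor response, had 4243, 3849, 4949.9 and 4142 in control replicates 1 to 4 and 5225, 4466, 3899 and 4391 in TGFβ1FKO replicates 1 to 4. Here TGFβ1FKO replicate 1 and control replicate 3 were the highest libraries, and the fold change was 1.05 with a 95% interval of 0.913 to 1.20 (limma, adjusted p = 0.906).

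*Arc*, a cytoskeleton-associated immediate early gene best known from neurons, had 153, 138, 169.7 and 229 in control replicates 1 to 4 and 220.0, 274, 233 and 268 in TGFβ1FKO replicates 1 to 4. All 4 TGFβ1FKO libraries were above control replicates 1 to 3, and the groups overlapped because control replicate 4 lay above TGFβ1FKO replicate 1. The mean was 173 ± 39.9 (SD, n = 4) in controls and 249 ± 26.5 (SD, n = 4) in TGFβ1FKO fibroblasts. The fold change was 1.46 with a 95% interval of 1.17 to 1.82 and a log2 value of 0.55 (SE 0.15). Its unadjusted p was 0.00267 in limma's test, and its adjusted p over all genes was 0.415. Without control replicate 4, the log2 fold change was 0.69 and the adjusted p 0.0441 (limma, Benjamini-Hochberg), so that *Arc* was then called, as were 0.212% of all genes. With each of the other libraries left out the adjusted p of *Arc* was between 0.256 and 0.888.

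**Figure D1:**
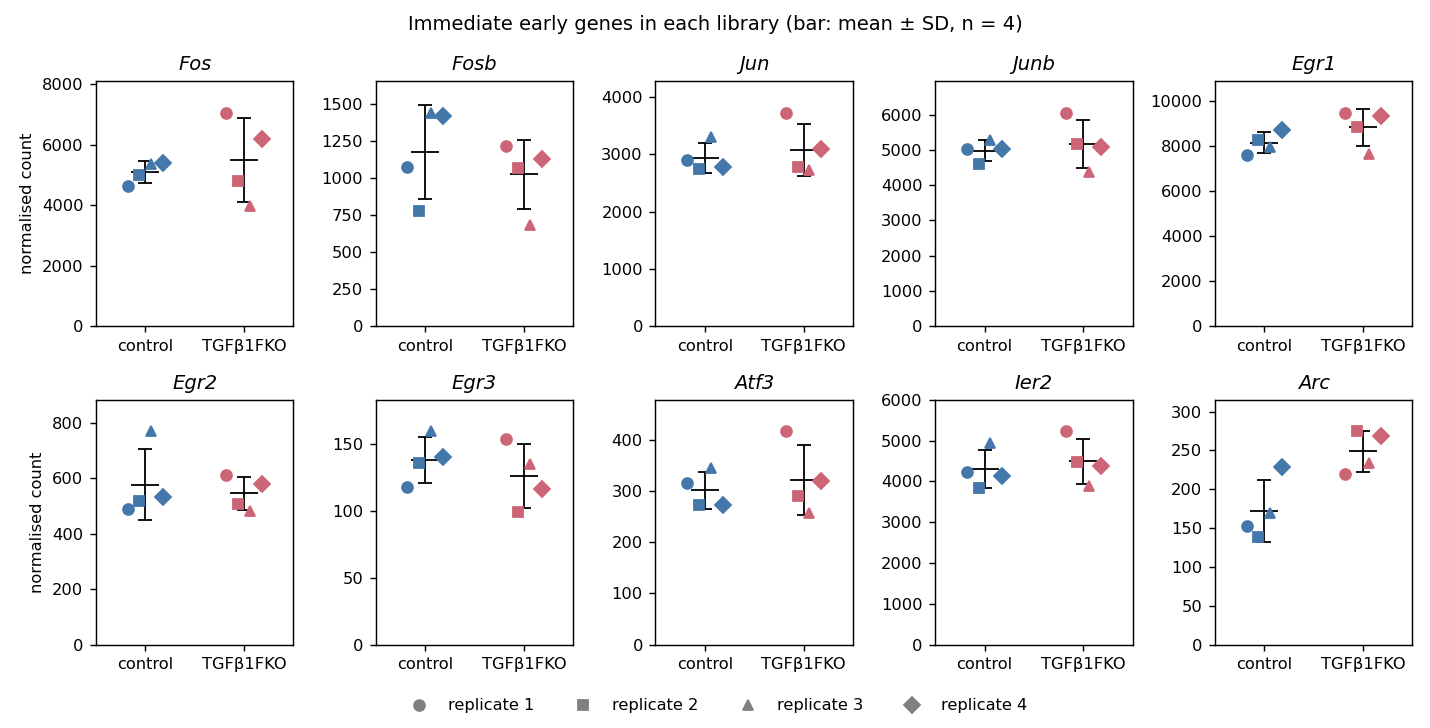
Normalised counts (y axes, each from 0) of the 10 immediate early genes in control (blue) and TGFβ1FKO (red) libraries, with the replicate number as the marker shape and the mean ± SD of 4 libraries in black. For 9 of the 10 genes TGFβ1FKO replicate 1 is the highest TGFβ1FKO library, and for *Arc* the controls reach from 138 to 229 and the TGFβ1FKO libraries from 220.0 to 274.

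Over the 10 genes, 0 passed both thresholds of the study, an adjusted p under 0.05 and a log2 fold change beyond 0.6 in either direction, beside 0.086% of all 15111 genes. At an unadjusted p under 0.05 there was 1 of 10, *Arc*, beside 7.46% of all genes, or 3.59% when only genes higher in TGFβ1FKO fibroblasts are counted. Groups that did not overlap were found in 0 of the 10, beside 3.79% of all genes. The log2 fold change was above 0 for 7 genes and below 0 for *Fosb*, *Egr2* and *Egr3*, with a median of 0.06 over the 10 and 0.0031 over all genes. Without TGFβ1FKO replicate 1, it was below 0 also for *Fos*, *Jun*, *Junb*, *Atf3* and *Ier2*, at -0.0580 to -0.0113. For the 9 genes other than *Arc* the 95% interval of the fold change spanned 1. Over these 9 the lowest bound was 0.649, for *Fosb*, and the highest was 1.30, for *Fos*.

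**Figure D2:**
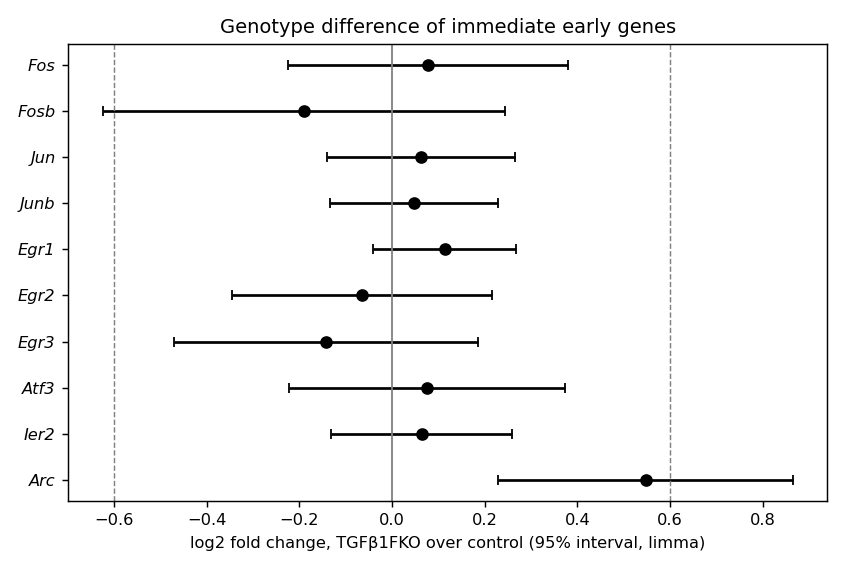
Log2 fold change of TGFβ1FKO over control for each immediate early gene (points) with its 95% interval from limma (bars), and dashed lines at the study's threshold of 0.6 on either side of 0. Only the interval of *Arc*, 0.23 to 0.87, lies wholly on one side of 0.

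Most of the 10 genes moved together from library to library within a genotype, with *Arc* and *Egr3* as exceptions in the TGFβ1FKO libraries. TGFβ1FKO replicate 1 was the highest TGFβ1FKO library for 9 of the 10 genes, all but *Arc*, whereas it was the highest for 27.7% of all genes. TGFβ1FKO replicate 3 was the lowest for 8 of the 10, all but *Egr3* and *Arc*, beside 24.6% of all genes. Both held for 8 of the 10 and for 8.48% of all genes. Among the controls, replicate 3 was the highest for 7 of the 10, beside 24.5% of all genes. Replicate 4 was the highest control for *Fos*, *Egr1* and *Arc*, and replicates 2 and 1 were the lowest for 6 and 4 of the 10.

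The size of this movement differed among the genes. From TGFβ1FKO replicate 3 to replicate 1 the level differed 1.78-fold for *Fos*, 1.78-fold for *Fosb* and 1.62-fold for *Atf3*, the genes with the widest gap. It differed 1.37-fold for *Jun*, 1.38-fold for *Junb*, 1.34-fold for *Ier2*, 1.27-fold for *Egr2* and 1.24-fold for *Egr1*. The *Arc* level went the other way, at 0.943 of the replicate 3 level in replicate 1. On the log2 scale, the median deviation from the group mean over the 10 genes was 0.26 in TGFβ1FKO replicate 1, 0.05 in replicate 4, -0.05 in replicate 2 and -0.20 in replicate 3, and it was 0.19 in control replicate 3, 0.02 in replicate 4, -0.09 in replicate 1 and -0.12 in replicate 2.

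**Figure D3:**
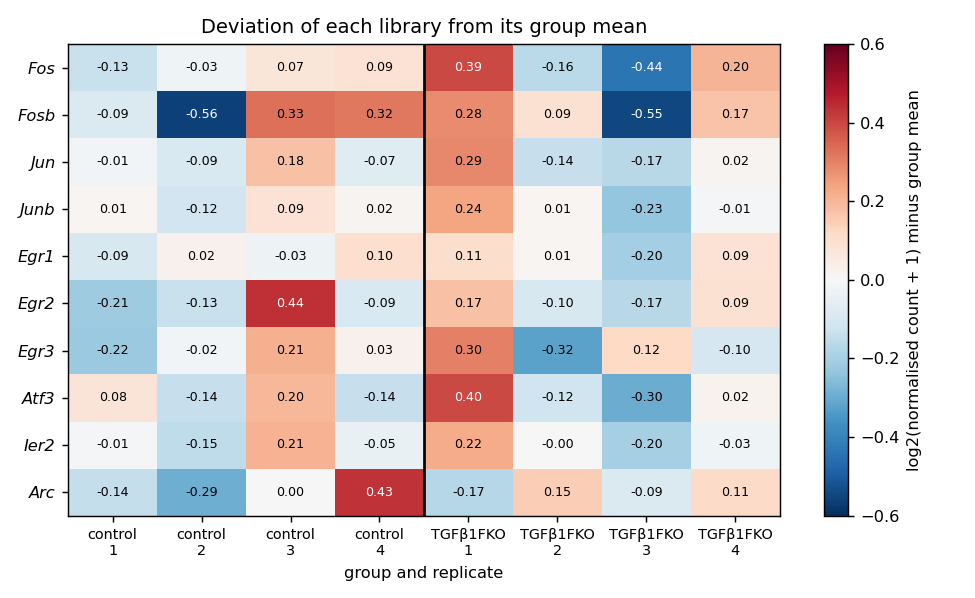
Deviation of log2(normalised count + 1) from the mean of its group, for each immediate early gene (rows) in each library (columns, controls left of the black line), red above and blue below the mean. TGFβ1FKO replicate 1 is red in 9 of 10 genes and TGFβ1FKO replicate 3 is blue in 9 of 10, the exceptions being *Arc* and *Egr3*.

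Within-group spread was compared with that of the 10437 genes whose mean level reached 100 normalised counts, whose median SD on the log2 scale was 0.11. *Fosb* had an SD of 0.40, which 1.4% of those genes exceeded, and *Fos* had 0.27, exceeded by 5.49%. *Arc*, *Atf3*, *Egr2* and *Egr3* lay at 0.25, 0.24, 0.24 and 0.23, exceeded by 7.35% to 9.44%. The genes compared were not matched for level, and *Arc*, *Atf3* and *Egr3* had means of only 211, 311 and 132 over the 8 libraries. The part of counting noise in their spread was not tested. *Jun*, *Ier2* and *Junb* were closer to the middle, at 0.17, 0.16 and 0.15, and *Egr1* at 0.12 was exceeded by 47.1% of those genes. *Egr1* thus had the narrowest spread of the 10.

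Values of other kinds were set beside this order. TGFβ1FKO replicate 3 was the deepest library, at 23071528 reads on the listed genes, and control replicate 3 was the shallowest, at 16988998, while TGFβ1FKO replicate 1 had 19035441. The summed level of 18 heat shock and dissociation stress genes was 111430.0 in TGFβ1FKO replicate 1 and 111240.0 in TGFβ1FKO replicate 3, the libraries at the top and bottom for the immediate early genes, and 105500.0 and 109000.0 in replicates 2 and 4. It lay between 100740.0 and 107630.0 in controls, with replicate 1 the highest. The summed level of 14 integrated stress response genes was highest in TGFβ1FKO replicate 1, at 29556 against 28018 to 28825 in the other TGFβ1FKO libraries, and among controls in replicate 1, at 28607 against 27377 to 27716. The *Tgfb1* level in TGFβ1FKO replicates 1 to 4 was 326, 259.9, 228 and 295. The TGFβ1FKO libraries were in that same order for 6 of the 10 genes (*Fos*, *Fosb*, *Jun*, *Egr1*, *Egr2* and *Atf3*), beside 4.68% of all genes. Since 8 of the 10 shared replicate 1 as highest and replicate 3 as lowest, these matches are not separate from that shared order. In the list of 51 other immediate early genes, 4 had the *Tgfb1* order. Marker genes of cell types also had an uneven order. TGFβ1FKO replicate 3 was the lowest TGFβ1FKO library for 7 of the 9 fibroblast markers, and replicate 1 was the lowest for 8 of the 10 pericyte and smooth muscle markers, so low values of replicate 3 were not limited to the immediate early genes. Among the controls, replicate 3 was the highest for 6 of the 11 endothelial and 9 of the 16 Schwann cell markers. The part of depth, stress genes, cell types or remaining *Tgfb1* in the order of the libraries was not tested.

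Levels of different genes were compared per kb of exon, as a mean normalised count per kb. *Ier2* was the most abundant, at 2823 ± 307 (SD, n = 4) in controls, followed by *Fos* at 2165 ± 152, *Junb* at 2162.5 ± 126 and *Egr1* at 1815 ± 105. Over all 8 libraries *Fos* ranged from 1685 to 2999, *Junb* from 1899.6 to 2627 and *Egr1* from 1698 to 2109.8, so that these 3 neighbours overlapped, and *Ier2*, from 2529 to 3433, overlapped *Fos* and *Junb*. *Jun* followed at 853 to 1167.5, below every library of those 4. *Fosb* (109.7 to 231), *Egr2* (142 to 226) and *Atf3* (119 to 193) overlapped one another. *Arc* at 45.2 to 89.8 and *Egr3* at 22.6 to 36.2 were the lowest and overlapped neither each other nor the genes above. The order of close neighbours depended on the length used: per kb of the longest transcript, *Junb* at 2751 ± 159.9 in controls was above *Fos* at 2416 ± 169, and *Fosb* was at 312 ± 83.9 in place of 189 ± 50.8.

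The 7 *Fos* and *Jun* family subunits were also given as shares of their summed level per kb. In controls *Fos* made up 31.0% ± 1.94 (SD, n = 4) and *Junb* 31.0% ± 0.554, followed by *Jund* at 14.2%, *Jun* at 13.1%, *Fosl2* at 5.77%, *Fosb* at 2.68% and *Fosl1* at 2.20%. In TGFβ1FKO fibroblasts the shares were 31.7% ± 3.55 (SD, n = 4) for *Fos*, 30.9% ± 1.45 for *Junb*, 13.8% for *Jund*, 13.2% for *Jun*, 5.58% for *Fosl2*, 2.23% for *Fosb* and 2.54% for *Fosl1*. In single libraries, by exon length, *Junb* was above *Fos* in control replicates 1 and 3 and TGFβ1FKO replicates 2 and 3. *Jun* was above *Jund* in control replicate 2 and TGFβ1FKO replicate 1. The order of the group means was alike in both groups except at its lower end. There *Fosb* and *Fosl1* changed places with overlapping ranges (1.80% to 3.22% and 1.70% to 3.48% over the 8 libraries). With the longest transcript as the length they kept one order, *Fosb* at 3.79% and *Fosl1* at 2.06% in controls and 3.17% and 2.38% in TGFβ1FKO fibroblasts. The *Fos* share was 34.5% and 34.8% in TGFβ1FKO replicates 1 and 4 and 29.7% and 27.7% in replicates 2 and 3, while *Junb* stayed between 29.3% and 32.7% in all 8 libraries. *Fos*, *Fosb*, *Jun* and *Junb* together made up 77.8% ± 1.26 in controls and 78.0% ± 2.49 in TGFβ1FKO fibroblasts (SD, n = 4 each).

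**Figure D4:**
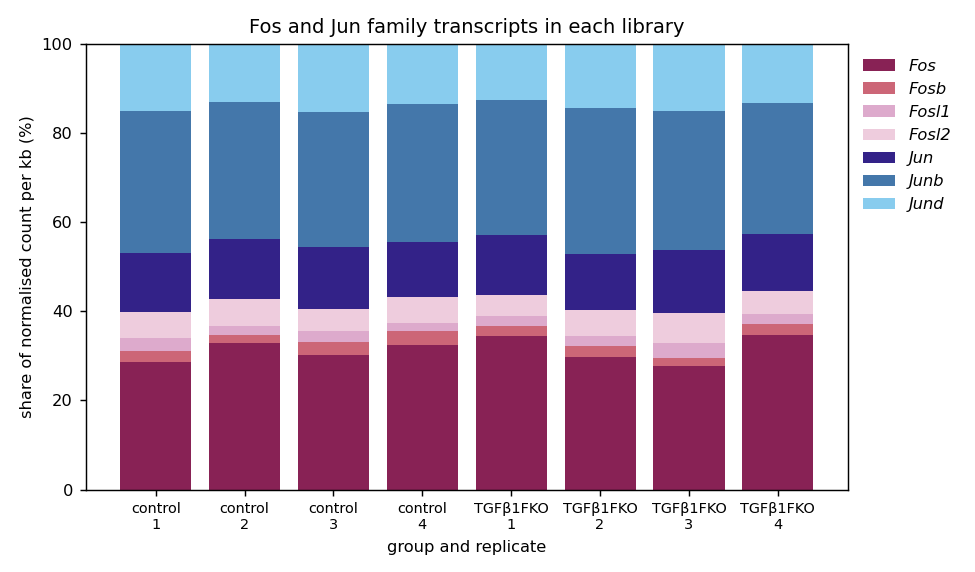
Share of each *Fos* and *Jun* family subunit in their summed normalised count per kb of exon (y axis, %), stacked for each library (x axis). *Fos* and *Junb* are the largest parts in all 8 libraries, and the *Fos* part is widest in TGFβ1FKO replicates 1 and 4, at 34.5% and 34.8%.

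Other genes of the immediate early response were looked at in a list of 51, of which all were in the table. Of these 0 were called, beside 0.086% of all genes. At an unadjusted p under 0.05, 1 was higher and 4 were lower in TGFβ1FKO fibroblasts, 9.80% of the list beside 7.46% of all genes, and the median log2 fold change was 0.00032. *Nr4a2*, a nuclear receptor of the immediate early class, was the only 1 of the 51 whose groups did not overlap, beside 3.79% of all genes. It had 93.8, 97.8, 97.6 and 103 in control replicates 1 to 4 and 72.0, 58.0, 63.1 and 54.3 in TGFβ1FKO replicates 1 to 4, with every TGFβ1FKO library below every control. Its log2 fold change was -0.66 (SE 0.14, limma, adjusted p = 0.160). *Cyr61*, a matricellular gene and the most abundant of the list, was at 11820.0 ± 741 in controls and 12021 ± 533 in TGFβ1FKO fibroblasts. TGFβ1FKO replicate 1 was the highest TGFβ1FKO library for 20 of the 51 (39.2%), beside 27.7% of all genes. Control replicate 3 was the highest control for 24 of them (47.1%), beside 24.5% of all genes. TGFβ1FKO replicate 3 was the lowest TGFβ1FKO library for 14 of them (27.5%), beside 24.6% of all genes. The order in which TGFβ1FKO replicate 1 was highest and replicate 3 lowest was found in 5 of the 51, beside 8.48% of all genes. These 5 were *Bhlhe40*, *Cyr61*, *Klf2*, *Nr4a1* and *Zfp36*.

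Genes around the pathway were likewise described by counts, to be read beside the shares over all genes, 0.086% called, 7.46% at an unadjusted p under 0.05 (3.59% higher in TGFβ1FKO fibroblasts) and 3.79% without overlap. Of 22 AP-1 and ATF partners 20 were in the table, with 0 called and 1 higher at an unadjusted p under 0.05, and *Atf5* was the most abundant at 8269 ± 510 in controls and 8596 ± 486 in TGFβ1FKO fibroblasts. Of 24 upstream kinases and serum response factors 23 were in the table, with 0 called and 1 higher at an unadjusted p under 0.05, and *Fhl2*, a LIM domain cofactor, was the most abundant at 5139.7 ± 294 and 4987 ± 493. Among 16 co-repressors and feedback regulators 0 were called and 3 were higher at an unadjusted p under 0.05. The groups did not overlap for the phosphatase genes *Dusp8* (193 ± 13.0 in controls and 239.9 ± 30.2 in TGFβ1FKO fibroblasts, log2 fold change 0.30, limma, adjusted p = 0.587) and *Dusp3* (1780.0 ± 42.6 and 1986 ± 138, log2 fold change 0.16, adjusted p = 0.597). *Ddit4*, the most abundant of these 16, was at 2232 ± 160 and 2242 ± 149. None of the 18 heat shock and dissociation stress genes and none of the 14 integrated stress response genes was called, with 1 and 0 of them at an unadjusted p under 0.05. Their most abundant members were *Hsp90ab1*, a chaperone gene, at 26702 ± 256 in controls and 27683 ± 1059 in TGFβ1FKO fibroblasts, and *Phgdh*, a serine synthesis gene, at 4079 ± 47.8 and 4258 ± 221.

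The genes most like *Fos* and *Egr1* were named by Pearson correlation over the 8 libraries, among 11551 genes whose mean level reached 50 normalised counts. Only the 10 genes of this report were left out. Genes of the list of 51 other immediate early genes that reached that level stayed in the search. For *Fos* they were *Zfp810* (r = 0.958), *Pm20d1* (0.952), *Fam45a* (0.946), *Abhd5* (0.938) and *Nsmce2* (0.930). For *Egr1* they were *mt-Rnr2*, a mitochondrial ribosomal RNA (r = 0.954), *Dnaja3* (0.928), *Ccdc152* (0.927), *Ptgr2* (0.913) and *Sergef* (0.909). All points share the size factors of the same 8 libraries, and with so many genes searched these values are a description only.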

How the data were processed

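RNA of primary dermal fibroblasts was sequenced as non-directional paired-end libraries after poly-A selection, 4 control and 4 TGFβ1FKO, grouped by the genotype in the labels. The submitters' processing notes name CASAVA 1.8, HISAT2 2.0.5, featureCounts 1.5.0-p3, R 4.3.2 and DESeq2 1.42.0, with GRCm38. The authors left out genes with low summed counts and deposited counts normalised by DESeq2 (a signal per gene and library) with 0.5 added to each. With 0.5 subtracted, 100% of the values in each library were whole multiples, within 0.1, of the value of 1 read, which gave the reads on listed genes, and the lowest sum over the libraries was 41. The deposited table also holds the results of the authors' own comparison, namely p-values, a log2 fold change with its error and a score, the Wald statistic, and these columns were not used.

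Values were compared as log2(normalised count + 1) in limma 3.58.1 (R 4.3.3), using a trend of variance on mean and Benjamini-Hochberg adjustment over all 15111 genes. The pseudocount understates changes of low genes. A call needed an adjusted p under 0.05 and a log2 fold change beyond 0.6 in either direction. Tests on whole reads were planned and not run. Libraries within a group were not copies of each other, with a chi-square of at least 4.89 per degree of freedom. The limma script was tested on simulated data. Tables were handled with Python 3.11.15, pandas 2.3.3 and scipy 1.17.1.

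The 10 genes and the lists were chosen with earlier results of these data known. Named besides the 10 are *Tgfb1*, the members of each list that were called or had an unadjusted p under 0.05 without overlap of the groups (at most 5 a list), the most abundant gene of each list, and the 5 genes most like *Fos* and *Egr1*. One item that this rule names is not reported here. *Prdx2* and *Junos* and the members that share the order of the libraries were named after their values were seen. The analyses of that order beyond counts of the highest and lowest library were added after seeing the data. Positions and lengths, the union of exons or, as an alternative, the longest transcript, are from GENCODE M21.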

Additional observations from a re-analysis of the deposited data

Results flagged for a closer look

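In controls, *Egr2* had 769.5 in replicate 3 and 490.4 to 533 in the other 3 libraries. The gap to the nearest library, as a part of the group's whole range, was above Dixon's 95% critical value for 4 samples. Of 20 groups of 4 libraries looked at, 10 genes in 2 genotypes, 1 stood out in this way, and about 1 in 20 does so by chance.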

How the results depend on the processing

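With all 8 libraries kept, 0 of the 10 genes were called under pseudocounts of 0.5 and 5, a minimum mean of 10, no fold change threshold and the replicate block, and under 3 settings chosen after seeing the data, equal library totals, quantile normalisation and no mean-variance trend, and no fold change turned its direction. Deviations of same-numbered libraries correlated at -0.13 to 0.16 and those of others at -0.32 to 0.39. So few libraries cannot settle whether the replicate numbers pair them. In the fit with the replicate block 0 of the 10 genes were called and 31 of all genes, against 13 without it. The adjusted p of *Arc* was 0.187 with the block and 0.415 without it (limma). TGFβ1FKO replicate 1 was the highest TGFβ1FKO library for 9 of the 10 genes with equal library totals and for 8 with quantile normalisation. Among all genes 8 were called with quantile normalisation and 2 without the trend.

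With each library left out in turn, 0 to 1 of the 10 genes were called, the 1 being *Arc* without control replicate 4, and 1 to 2 had an unadjusted p under 0.05, the 2 being *Arc* and *Egr1* without TGFβ1FKO replicate 3. Among all genes 5 to 32 were called, with 5 without control replicate 3 and 32 without control replicate 4. Without TGFβ1FKO replicate 1 the log2 fold changes of *Fos*, *Jun*, *Junb*, *Atf3* and *Ier2* turned to -0.0536, -0.0334, -0.0308, -0.0580 and -0.0113, from ranges over the left-out libraries that reached 0.22, 0.12, 0.13, 0.17 and 0.13. That of *Egr2* ranged from -0.14 to 0.0799, and was above 0 without control replicate 3. The causes were not tested. The planned edgeR, DESeq2 and TMM settings on whole reads were not run, so their effect is not known. With 4 libraries a group, the 95% intervals were widest for *Fosb* and *Egr3* on the log2 scale. With the longest transcript as the length, *Fos*, *Fosb*, *Jun* and *Junb* made up 78.4% and 78.6% of the subunits in controls and TGFβ1FKO fibroblasts.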
